A study of Mus musculus with 8 samples.

Results

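The 10 genes described here were listed for large peritoneal macrophages and the programme that the transcription factor GATA6 maintains in them. They are *Gata6*, *Rarb*, *Timd4*, *Adgre1*, *Icam2*, *Selp*, *Prg4*, *Tgfb2*, *Garnl3* and *Cd5l*, chosen by name and matched by symbol to the GRCm38 annotation. All 10 were found among the 48795 genes of the count tables, and all 10 were among the 13040 genes that could be tested. Peritoneal macrophages (pMacs) were taken by peritoneal lavage from WT mice on the C57BL/6 background and from CD1d-KO mice, which lack the lipid antigen-presenting molecule CD1d in all cells. The study describes the pMacs of this comparison as purified and the WT mice as littermate controls. There was 1 library of polyadenylated RNA per mouse and 4 mice per genotype, numbered 1, 2, 3 and 5 among WT and again among CD1d-KO. The mice of the study were 8 to 16 weeks old, and no treatment is given for these libraries. Its methods name a line with a floxed CD1d gene crossed to PGK-Cre, a ubiquitous deleter, beside a strain without either CD1d gene, B6.129S6-Del(3Cd1d2-Cd1d1)1Sbp/J. Which of these was sequenced is not given in the sources used here.

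Large peritoneal macrophages are the resident macrophages that fill most of the macrophage compartment of the resting peritoneal cavity. Retinoic acid made by cells of the cavity wall and the omentum keeps GATA6 on in these cells, and GATA6 in turn drives surface, secreted and matrix proteins that other macrophages lack. The smaller population, small peritoneal macrophages, derives from monocytes, carries MHC class II and does not depend on GATA6. In bulk libraries such as these, fewer cells of a type and less RNA per cell cannot be told apart.

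The label of 1 library did not match its counts of the deleted gene. The deleted gene *Cd1d1* had 67.7, 174, 95.5 and 140 normalized counts in WT replicates 1, 2, 3 and 5, and 1.14, 0 and 1.09 in CD1d-KO replicates 2, 3 and 5. Normalized counts are counts scaled to a common library size. The library labelled CD1d-KO replicate 1 had 60.2. Fits without replicate 1 leave out this library and its WT partner, and their values are given beside each member and beside some of the list genes. With this library in the fit *Cd1d1* had an adjusted p of 0.233 in edgeR, and without replicate 1 it was 0.000685. The neighbouring *Cd1d2* had at most 3.20 normalized counts. Library totals ran from 13698864 to 19059432 expected counts. *Xist*, the RNA of the inactive X chromosome, was present in all 8 libraries, and each of 4 Y-linked genes had at most 3.14 normalized counts. *Xist* ran from 6232 to 8201 normalized counts in WT and from 9374 to 14867 in all libraries labelled CD1d-KO. Why the library labelled CD1d-KO replicate 1 held *Cd1d1* counts was not tested.

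By level, the 10 genes ran from among the most abundant transcripts to a gene listed near the middle of those detected. Levels of different genes are compared in TPM, the transcript abundance that RSEM scales for length and depth. *Prg4*, which encodes the lubricating proteoglycan lubricin, had a mean of 3207 TPM over the 8 libraries, above 99.9% of the genes with a TPM above 0. *Adgre1*, which encodes the macrophage surface protein F4/80, had 378 TPM and lay above 98.8%. Next came *Cd5l*, which encodes a secreted scavenger receptor protein, at 214 TPM and *Timd4*, the phosphatidylserine receptor TIM-4, at 182 TPM. *Selp*, which encodes P-selectin, had 77.6 TPM and *Icam2*, the adhesion molecule CD102, had 48.2 TPM. *Gata6* itself was expressed at a moderate level, 19.8 TPM, above 80.5% of genes, close to *Tgfb2*, which encodes a ligand of the TGF-β receptors, at 15.97 TPM. *Garnl3*, which encodes a protein with a GTPase-activating domain of the Rap type, had 4.54 TPM. *Rarb*, the retinoic acid receptor β, stood last with 0.573 TPM, above 42.9% of genes.

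**Figure D1:**
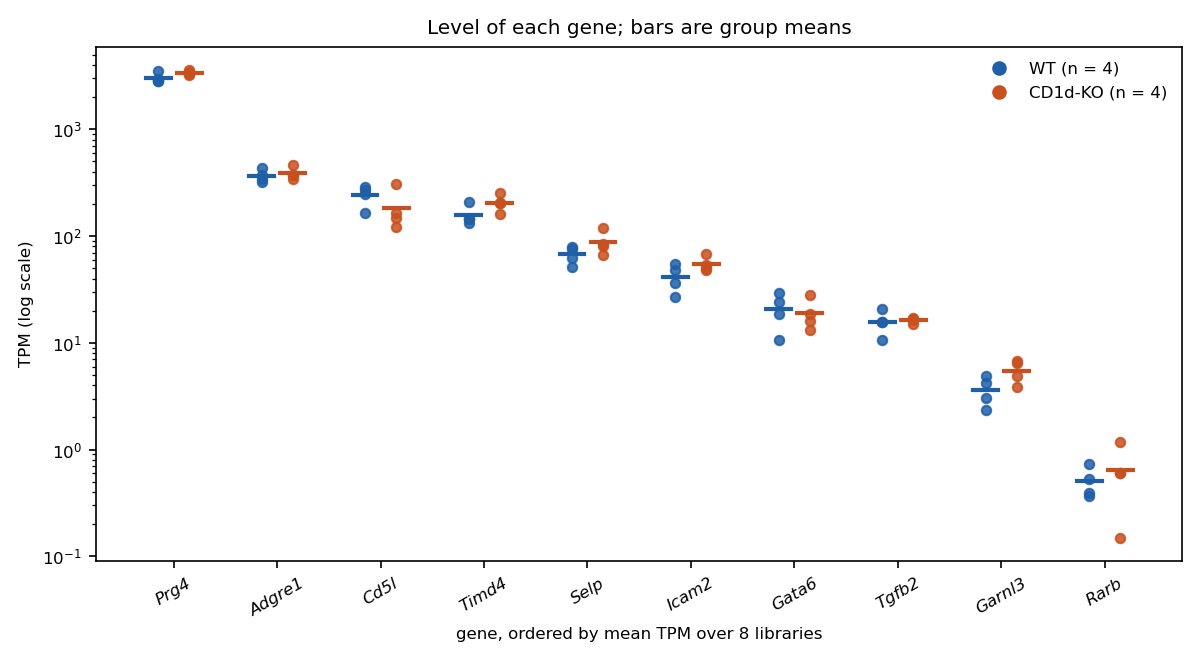
TPM on a log axis for each of the 10 genes, ordered by mean TPM, with 1 point per library (4 WT and 4 CD1d-KO) and bars at the group means. *Prg4* lay between 2814 and 3567 TPM in every library and *Rarb* between 0.15 and 1.19.

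The order of levels was stable for most neighbours. In all 8 libraries *Prg4* exceeded *Adgre1* and *Adgre1* exceeded *Cd5l*. The levels of *Cd5l* and *Timd4* overlapped in both genotypes, with *Cd5l* the higher in 5 of 8 libraries. *Gata6* and *Tgfb2* also overlapped in both genotypes, and *Gata6* was the higher in 5 of 8. *Selp* exceeded *Icam2* in 7 of 8 libraries, although the ranges overlapped in both genotypes. *Timd4* exceeded *Selp*, *Icam2* exceeded *Gata6*, *Tgfb2* exceeded *Garnl3* and *Garnl3* exceeded *Rarb* in all 8. TMM-scaled counts per kilobase gave the same order of the 10 genes.

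Promoter sequence was taken from RefSeq for the 6 members with an entry (GRCm38.p6, 250 bases before to 50 after the transcription start): *Rarb*, *Timd4*, *Selp*, *Tgfb2*, *Garnl3* and *Cd5l*. *Gata6*, *Adgre1*, *Icam2* and *Prg4* had no entry. A pair of motifs was searched on both strands. The first was the GATA site, spelled AGATAA or AGATAG or TGATAA or TGATAG. The second was the retinoic acid response element of the DR5 type, a direct repeat with 5 bases between its units, where a unit is AGGTCA or AGTTCA or GGGTCA or GGTTCA. The motifs do not overlap each other in these windows. A match describes letters in the window and is not evidence of binding.

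A promoter of *Rarb* is shown because it held the only DR5 match among the 6 members with an entry, a motif found in 0.0974% of the 32851 promoter windows. The window before the start lies on the minus strand at chr14:16575477-16575726, and the capitals mark the match, whose first base lies 53 bases before the start. This start lies inside the annotated gene, which runs from 16430839 to 16819156. Which start of *Rarb* was used in these libraries was not tested.

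Rarb: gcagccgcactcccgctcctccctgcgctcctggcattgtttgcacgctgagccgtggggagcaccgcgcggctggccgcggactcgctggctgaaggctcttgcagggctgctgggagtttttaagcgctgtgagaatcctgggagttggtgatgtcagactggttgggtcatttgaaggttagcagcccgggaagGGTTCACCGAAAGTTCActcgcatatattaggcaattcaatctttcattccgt

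The promoter of *Cd5l* is shown because it held 3 GATA sites. At least 1 GATA site was present in 29.8% of all promoter windows and at least 3 in 1.76%. The window before the start lies on the plus strand at chr3:87357631-87357880. The capitals mark sites whose first bases lie 127 and 31 bases before the start, the second on the opposite strand, and the third site begins 3 bases into the transcript.

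Cd5l: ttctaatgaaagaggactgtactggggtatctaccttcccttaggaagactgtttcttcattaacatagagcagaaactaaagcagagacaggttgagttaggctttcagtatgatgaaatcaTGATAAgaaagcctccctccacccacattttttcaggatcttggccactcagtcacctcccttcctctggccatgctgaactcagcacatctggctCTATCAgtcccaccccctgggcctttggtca

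*Tgfb2* and *Timd4* held 1 GATA site each, both on the opposite strand and just after the start, shown here with the bases around them (minus strand at chr1:186705971-186706000 and plus strand at chr11:46810792-46810821).

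Tgfb2: agaatcgtgatgTTATCTgctggcagcagg

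Timd4: gacacacagatcCTATCAaaatgtccaagg

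*Selp* and both start sites of *Garnl3* held neither motif in this window.

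The comparison of the genotypes asked whether any of these genes differed between CD1d-KO and WT pMacs. Genotype and replicate number were fitted together in edgeR, with Benjamini-Hochberg adjustment over all 13040 genes, and log2 fold changes are CD1d-KO over WT. A call needed a fold change above 1.5 at an adjusted p under 0.01. On this rule 0 of the 10 genes were called, against 0.0383% of all genes tested (5 genes). DESeq2 also called 0 of the 10, against 0.795% of its genes. At an adjusted p under 0.05 in edgeR the count was 0 of 10, against 0.406% of all genes. At an unadjusted p under 0.05 it was 4 of 10, against 12.4% of all genes tested. Of these, *Timd4*, *Selp* and *Garnl3* had higher values in CD1d-KO (7.35% of all genes did so at this level) and *Cd5l* had lower values. When the filter on low counts was left out, 25377 genes were tested, and the same 4 genes had edgeR adjusted p-values of 0.0225 for *Timd4*, 0.0339 for *Selp*, 0.0209 for *Garnl3* and 0.0316 for *Cd5l*. In that fit 4 of 10 genes were under 0.05, against 2.44% of all genes. All 10 had passed the filter and the genes it removes have low counts, so that share is not one of like genes. The fit without the filter also called 236 genes, beside 5 with it, and gave *Cd5l* a standard error of 0.122 beside 0.179. The log2 fold change was positive for 8 of the 10 genes, with a median of 0.18, beside 51% of all genes tested and a median of 0.005. In pairs 1, 2, 3 and 5 the median log2 ratio of the 10 genes was 0.26, 0.10, 0.52 and 0.056, so pair 3 had the largest.

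**Figure D2:**
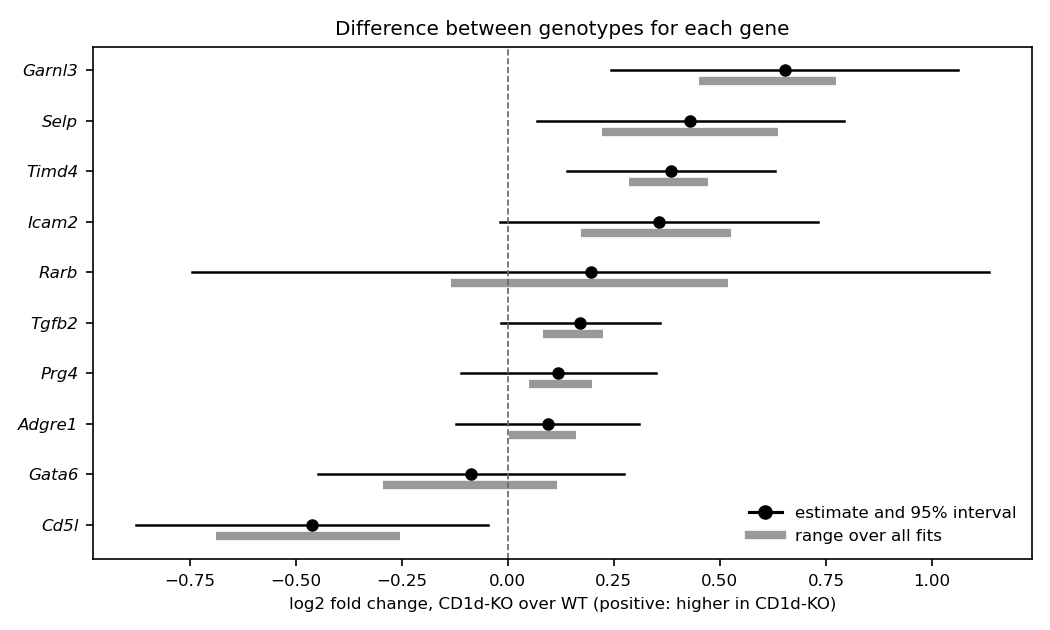
Log2 fold change of CD1d-KO over WT for each gene, with the estimate from edgeR (points), its 95% interval (black lines) and the range over all fits (grey bars). The intervals of *Garnl3*, *Selp* and *Timd4* lay above 0 and that of *Cd5l* below 0 before adjustment for the number of genes tested.

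The regulators come first. *Gata6* (ENSMUSG00000005836) is a zinc finger transcription factor gene on chromosome 18 of GRCm38 from 11052064 to 11085635, on the plus strand. Its normalized counts were 774, 612, 345 and 744 in WT replicates 1, 2, 3 and 5 and 774, 603, 455 and 458 in the CD1d-KO libraries of the same numbers. The groups overlapped throughout: pairs 1 and 2 held near-equal values, pair 3 was higher in CD1d-KO and pair 5 lower. The means were 619 ± 196 in WT and 573 ± 151 in CD1d-KO (SD, n = 4 each), with a log2 fold change of -0.09 and a 95% interval of -0.45 to 0.27 (edgeR, Benjamini-Hochberg adjusted p = 0.879). The sign depended on pair 5, and without replicate 5 the log2 fold change was 0.12. The fit without replicate 1 gave -0.12, and without replicate 3 it was -0.23. *Gata6* varied more among WT mice than most genes, with a highest library 2.24-fold above the lowest, beside a median of 1.47-fold over all genes tested. The antisense transcript *1010001N08Rik*, which overlaps *Gata6* on the opposite strand, had at most 15.1 normalized counts in any library.

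*Rarb* (ENSMUSG00000017491) is a nuclear receptor gene on chromosome 14 from 16430839 to 16819156, on the minus strand, and is itself a known target of retinoic acid. It rested on few reads, with expected counts of 25, 11, 10 and 15 in WT replicates 1, 2, 3 and 5 and of 41, 4, 17 and 15 in CD1d-KO. After normalization these became 18.6, 11.7, 11.9 and 15.7 in WT and 30.9, 4.54, 19.8 and 16.4 in CD1d-KO. The CD1d-KO libraries held both the highest and the lowest value, a 6.79-fold span, and the WT values lay between them. The log2 fold change was 0.20 with a wide 95% interval, -0.74 to 1.14 (edgeR, adjusted p = 0.900). No change and changes of either sign lay within these bounds. The highest value belonged to the library labelled CD1d-KO replicate 1, and without replicate 1 the log2 fold change was -0.05. *Rarb* overlaps *Top2b* on the opposite strand, a gene with 871 to 1297 normalized counts. The strand setting of the counting is not given in the sources used here, so reads of the 2 genes may not be separable where they overlap.

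**Figure D3:**
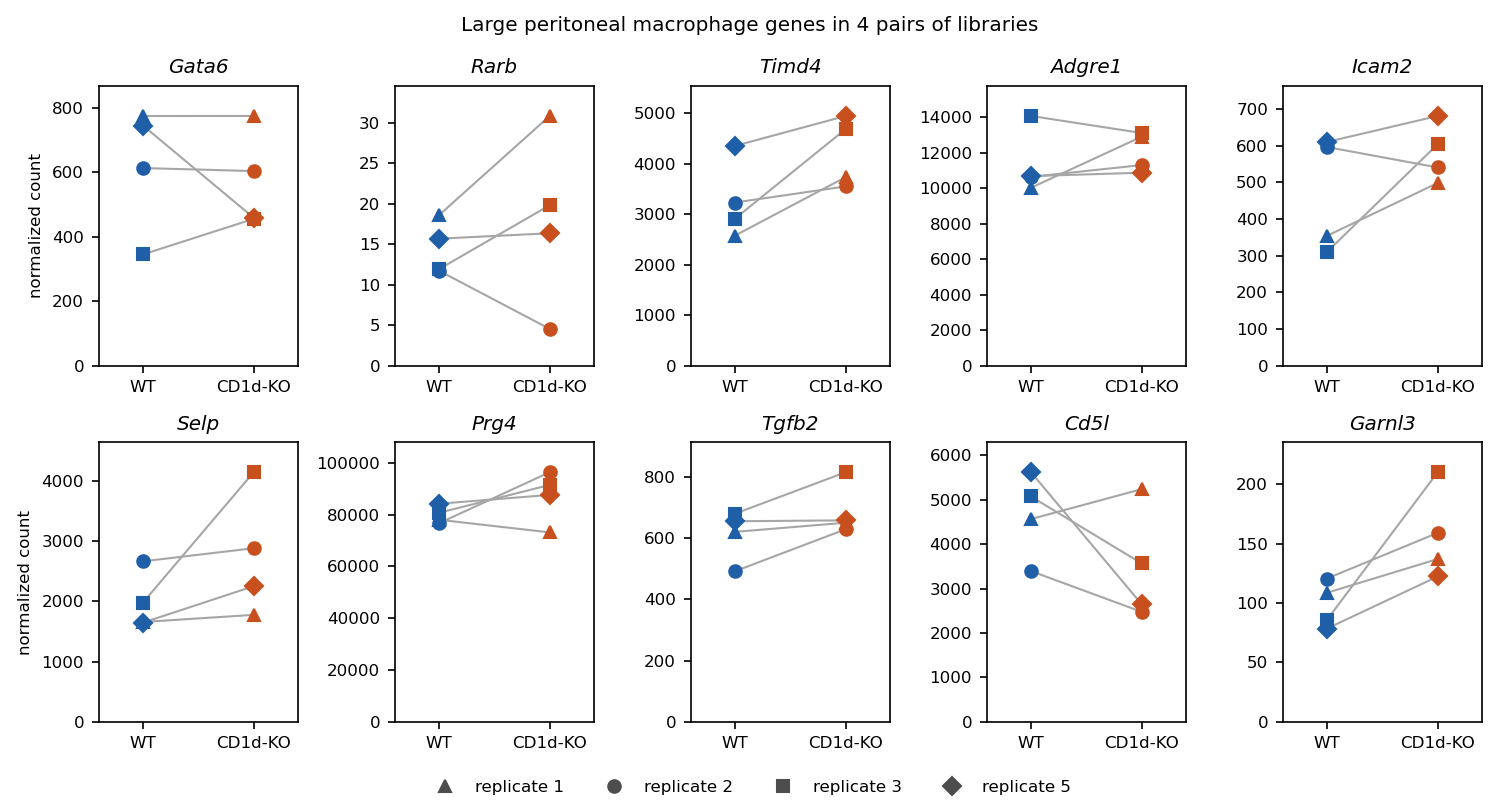
Normalized counts of the 10 genes in each library, with each WT library joined to the CD1d-KO library of the same replicate number; symbols mark the replicate number and every axis starts at 0. The CD1d-KO point is the higher in 4 of 4 pairs for *Timd4*, *Selp*, *Tgfb2* and *Garnl3*, and the lower in pairs 2, 3 and 5 for *Cd5l*.

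Of the 4 genes for surface proteins, *Timd4* and *Selp* had higher normalized counts in CD1d-KO in every pair. *Timd4* (ENSMUSG00000055546), on chromosome 11 from 46810800 to 46844332, encodes a receptor by which resident macrophages bind dying cells. WT libraries held 2577, 3233, 2914 and 4355 normalized counts of *Timd4* and CD1d-KO libraries 3736, 3552, 4689 and 4948, in the order of replicates 1, 2, 3 and 5. The CD1d-KO library was the higher in 4 of 4 pairs, but the groups overlapped because WT replicate 5 lay above 2 of the CD1d-KO libraries. The log2 fold change was 0.39 (standard error 0.11, 95% interval 0.14 to 0.63, edgeR adjusted p = 0.200). It ranged from 0.29 to 0.47 over all fits. The fit without replicate 1 gave 0.33, and DESeq2 over all 8 libraries gave an adjusted p of 0.052.

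*Selp* (ENSMUSG00000026580), on chromosome 1 from 164115264 to 164150026, encodes an adhesion molecule best known from platelets and activated endothelium. In WT libraries *Selp* had 1659, 2666, 1982 and 1648 normalized counts, and in CD1d-KO libraries 1777, 2883, 4145 and 2253. It was higher in CD1d-KO in 4 of 4 pairs, by small margins in pairs 1 and 2 and by a log2 ratio of 1.06 in pair 3. The log2 fold change was 0.43 (standard error 0.16, edgeR adjusted p = 0.319), and without replicate 3 it was 0.22 (adjusted p = 0.582). The fit without replicate 1 gave 0.54 (adjusted p = 0.403). Pair 3 thus carried much of the difference. TPM ordered the WT libraries differently: WT replicate 1 had the highest WT value at 79.6 TPM, where RSEM used an effective length of 2433 bases beside 3005 to 3295 in the other libraries. Of markers of the other cells that carry P-selectin, *Cdh5* of endothelium had at most 12.01 normalized counts and *Itga2b* and *Gp9* of platelets at most 11.7 and 2.39. Other genes of these lists were higher: *Egfl7* of endothelium reached 22.7, and *Ppbp*, *Gp6* and *Gp1ba* of platelets 32.2, 32.8 and 23.1. The platelet list also held *Clec1b* at up to 111 and *Pf4* at up to 13470 normalized counts, against 1648 to 4145 of *Selp*. Of the 5 platelet markers tested, 2 were higher and 3 lower in CD1d-KO. The part of such cells in the values of *Selp* was not tested.

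*Icam2* (ENSMUSG00000001029), on chromosome 11 from 106377656 to 106388075, encodes an integrin ligand used to gate large peritoneal macrophages. The WT values were 354, 597, 310 and 610 normalized counts and the CD1d-KO values 498, 541, 604 and 681. WT replicates 1 and 3 were low and the other libraries lay close together, so the groups overlapped. The log2 fold change was 0.36 (95% interval -0.02 to 0.73, edgeR adjusted p = 0.422), and the CD1d-KO library was the higher in 3 of 4 pairs. The size depended on pairs 3 and 2, since it was 0.17 without replicate 3 and 0.53 without replicate 2. For *Icam2* it was 0.31 without replicate 1. *Adgre1* (ENSMUSG00000004730), on chromosome 17 from 57358691 to 57483527, had the narrowest difference of the surface genes. WT mice had 10033, 10649, 14083 and 10691 normalized counts and CD1d-KO mice 12914, 11314, 13122 and 10883. WT replicate 3 was the highest of the 8, and the log2 fold change was 0.09 (95% interval -0.12 to 0.31, edgeR adjusted p = 0.747). The fit without replicate 1 gave 0.004, and without replicate 3 it was 0.16. The study enriched F4/80-positive cells with beads for some experiments, and whether these libraries were enriched that way is not given in the sources used here.

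The 95% intervals of both *Prg4* and *Tgfb2*, genes for secreted proteins, included 0. *Prg4* (ENSMUSG00000006014) lies on chromosome 1 from 150449412 to 150466165. WT libraries held 78034, 76697, 80724 and 84226 normalized counts of it, and CD1d-KO libraries 73165, 96393, 91474 and 87634. The 4 WT libraries were within 1.10-fold of each other, the closest of the 10 genes. The CD1d-KO values lay on both sides of the WT values, and the log2 fold change was 0.12 (95% interval -0.11 to 0.35, edgeR adjusted p = 0.689). It was 0.051 without replicate 2 and 0.19 without replicate 1. *Prg4* overlaps *Tpr* on the opposite strand, which had 3913 to 4627 normalized counts, well below those of *Prg4*. *Tgfb2* (ENSMUSG00000039239) lies on the same chromosome from 186622792 to 186705989, and its WT values were 621, 492, 680 and 655 normalized counts beside CD1d-KO values of 650, 629, 815 and 658. It was higher in CD1d-KO in 4 of 4 pairs, with near-equal values in pairs 1 and 5, and the log2 fold change was 0.17 (95% interval -0.02 to 0.36, edgeR adjusted p = 0.445). It was 0.21 without replicate 1 and 0.11 without replicate 2.

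*Garnl3* (ENSMUSG00000038860), on chromosome 2 from 32986224 to 33131654, was the only one of the 10 genes whose groups did not overlap. Groups apart in this direction were found for 1.04% of all genes tested. The counts after normalization were 109, 121, 85.9 and 78.5 in WT and 137, 159, 210 and 122 in CD1d-KO. The highest WT library, replicate 2 at 120.6, lay just below the lowest CD1d-KO library, replicate 5 at 122.3, and the largest step was in pair 3, with a log2 ratio of 1.27. The log2 fold change was 0.65 (standard error 0.18, 95% interval 0.24 to 1.06, edgeR adjusted p = 0.194). Without replicate 3 it was 0.45 (adjusted p = 0.410), and without replicate 1 it was 0.77 (adjusted p = 0.319). In TPM the groups did overlap, from 2.37 to 4.86 in WT and from 3.86 to 6.71 in CD1d-KO, and the effective length that RSEM used for *Garnl3* ranged from 2332 to 3488 bases between libraries. The gene has 12 annotated transcripts.

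In normalized counts, 4 of the 10 genes (*Garnl3*, *Timd4*, *Selp* and *Tgfb2*) were higher in CD1d-KO in all 4 pairs. This pattern was shown by 10.6% of all genes tested. In TPM, pair 1 went the other way for *Selp* (79.6 in WT and 66.3 in CD1d-KO) and *Tgfb2* (20.8 and 17.2). *Timd4* and *Garnl3* kept the pattern in TPM, and *Icam2* showed it as well. None of the 10 was lower in all 4 pairs.

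*Cd5l* (ENSMUSG00000015854) was the 1 gene with an unadjusted p under 0.05 and lower values in CD1d-KO, and the library that held *Cd1d1* counts stood among the WT libraries. It encodes a macrophage protein that binds lipids and microbial products and is a known target of the Liver X receptors. Its place is chromosome 3, 87357881 to 87371073, at 0.358 Mb from *Cd1d1*, so DNA linked to the deletion and the deletion itself cannot be told apart for this gene. Its normalized counts were 4561, 3392, 5069 and 5615 in WT replicates 1, 2, 3 and 5. They were 5234 in the library labelled CD1d-KO replicate 1, and 2475, 3563 and 2645 in CD1d-KO replicates 2, 3 and 5. The library that held *Cd1d1* counts thus stood at 112% of the WT mean of *Cd5l*, and the other 3 CD1d-KO libraries at 62.1% (2894 ± 585, SD, n = 3).

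Over all 4 pairs the log2 fold change of *Cd5l* was -0.46 (standard error 0.18, 95% interval -0.88 to -0.05, edgeR adjusted p = 0.357). It was -0.68 without replicate 1 (edgeR adjusted p = 0.165). DESeq2 without replicate 1, a fit added after the data were seen, called *Cd5l* (adjusted p = 0.00175), along with 0.423% of its genes. DESeq2 over all pairs did not (adjusted p = 0.189). Even without replicate 1 the groups overlapped across pairs, since WT replicate 2 at 3392 lay below CD1d-KO replicate 3 at 3563. The size also depended on pair 5, which had a log2 ratio of -1.09, and without replicate 5 the log2 fold change was -0.25 (adjusted p = 0.711).

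**Figure D4:**
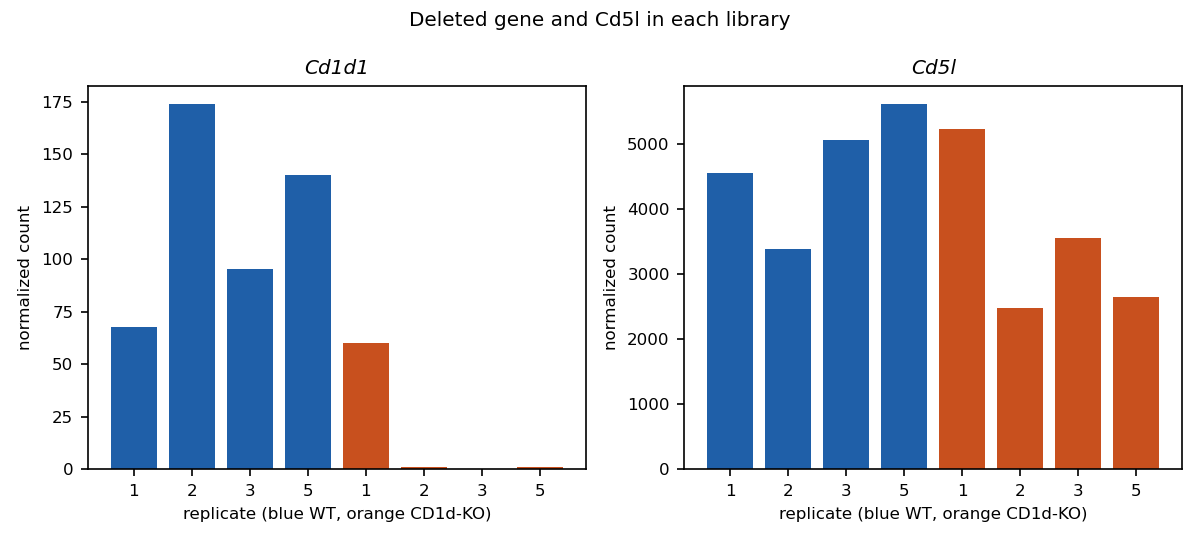
Normalized counts of *Cd1d1* and *Cd5l* in each library (bars from 0, WT in blue and CD1d-KO in orange, replicate numbers on the axis). The library labelled CD1d-KO replicate 1 had 60.2 counts of *Cd1d1* and 5234 of *Cd5l*, and the other 3 CD1d-KO libraries had 0 to 1.14 and 2475 to 3563.

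The genes whose log2 level over the 8 libraries was most like that of *Gata6* were *Maz*, *Ring1*, *Eif4ebp2*, *Timm8b* and *Pcnt*, with Pearson correlations of 0.978, 0.971, 0.969, 0.969 and 0.969. They lead a ranking of 7637 genes with a mean CPM of at least 10, so the likeness is a description of these 8 libraries. The points share their libraries and pairs, and none of the 5 was a member. Without the 2 libraries farthest from the median of *Gata6* the correlations were 0.91 to 0.943. The other members did not track *Gata6* from mouse to mouse: their Pearson correlations with it over the 8 libraries ran from -0.602 for *Adgre1* to 0.263 for *Cd5l*.

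A wider list of 20 other genes of large peritoneal macrophages was read from the same fit, and all 20 were tested. None had an adjusted p under 0.05 in edgeR, and 6 had an unadjusted p under 0.05, all with higher values in CD1d-KO, beside 7.35% of all genes tested. The median log2 fold change was 0.079, with 14 genes higher and 6 lower, beside 51% of all genes higher. Without replicate 1 the median was 0.044, with 11 of 20 higher. The most abundant were *Saa3*, an acute phase apolipoprotein, *Thbs1*, a matrix glycoprotein, and *Fn1*, fibronectin, at 34410, 11991 and 7557 TPM. Their log2 fold changes were -0.04, 0.16 and -0.11. *Cxcl13*, the chemokine that draws B cells to the cavity, was chosen after its values were seen because it had the smallest p of the list. WT mice had 8888 ± 4337 and CD1d-KO mice 14539 ± 3803 normalized counts (SD, n = 4 each), with a log2 fold change of 0.78 (edgeR adjusted p = 0.144) and higher values in 4 of 4 pairs. The fit without replicate 1 gave 0.56 (adjusted p = 0.279).

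Around *Rarb*, 19 genes of retinoid receptors and retinoid handling were read, of which 10 had enough counts to be tested. Their log2 fold changes were divided evenly, 5 higher and 5 lower, with a median of -0.009, and none had an adjusted p under 0.05 in edgeR. *Rxra*, the partner receptor that pairs with the retinoic acid receptors, had means of 1426 ± 45.5 in WT and 1430 ± 79.2 in CD1d-KO (normalized counts, SD, n = 4 each). *Dhrs3*, an enzyme that returns retinal to retinol, and *Tgm2*, a transglutaminase induced by retinoic acid, had log2 fold changes of -0.16 and 0.02, and of 0.007 and 0.12 without replicate 1. *Cyp26b1*, an enzyme that breaks down retinoic acid, was chosen after its values were seen as the 1 gene of the list with an unadjusted p under 0.05. It was low, at a mean of 9.44 ± 1.68 in WT and 25.6 ± 9.79 in CD1d-KO (normalized counts, SD, n = 4 each), with a log2 fold change of 1.38 (edgeR adjusted p = 0.148) and ranges of 8.37 to 11.9 and 15.3 to 37.3. Without replicate 1 the log2 fold change was 1.45 (adjusted p = 0.343). *Aldh1a1*, an enzyme that makes retinoic acid, had 0 counts in all 8 libraries, while *Aldh1a2*, which does the same, had 11.4 TPM.

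Around *Tgfb2*, 18 of the 19 listed genes of the TGF-β pathway were found and 17 tested, with 6 higher and 11 lower. The median log2 fold change was -0.021, and none had an adjusted p under 0.05 in edgeR. At an unadjusted p under 0.05, 4 genes had lower values (*Tgfb1* and *Lrrc32*, and the receptor genes *Tgfbr1* and *Tgfbr3*) and 0 had higher ones, beside 5.01% and 7.35% of all genes tested. These 4 genes were named after their values were seen. The ligand *Tgfb1* had 375 TPM, far above the 15.97 TPM of *Tgfb2*. Every pair had the lower value in CD1d-KO (8185 ± 1482 in WT and 6626 ± 908 normalized counts in CD1d-KO, SD, n = 4 each, log2 fold change -0.29, edgeR adjusted p = 0.319), the opposite sign to *Tgfb2*. For *Tgfb1* it was -0.23 without replicate 1. *Furin*, which cleaves the TGF-β precursor, was also abundant and had a log2 fold change of -0.02. *Tgfb3* had too few counts to be tested.

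Of 19 transcription factors of macrophages 15 were tested, with 8 higher, 7 lower, a median log2 fold change of 0.041 and none at an adjusted p under 0.05 in edgeR. *Cebpb*, *Zeb2* and *Spi1*, which encode general myeloid regulators, were the most abundant, and their log2 fold changes were -0.05, 0.09 and -0.04. The relatives *Gata1*, *Gata2*, *Gata3* and *Gata4* had a mean of less than 1 TPM each, beside 19.8 TPM of *Gata6*. At an unadjusted p under 0.05, *Spic*, *Id3*, *Nr1h3* and *Maf* had higher and *Irf8* lower values in CD1d-KO, and these 5 were named after their values were seen. Over all genes tested, 7.35% were higher and 5.01% lower at this level. *Spic*, a factor of red pulp macrophages, had the largest log2 fold change of the 5, with means of 177 ± 132 in WT and 342 ± 188 in CD1d-KO (normalized counts, SD, n = 4 each, log2 fold change 1.08, edgeR adjusted p = 0.108). The fit without replicate 1 gave 0.85 (adjusted p = 0.206). *Irf8* had the smallest p of the list, with a log2 fold change of -0.43 (edgeR adjusted p = 0.101). Without replicate 1 that of *Irf8* was -0.48 (edgeR adjusted p = 0.186).

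Of 19 receptors, ligands and relatives of the members 13 were tested, with 10 higher, 3 lower and a median log2 fold change of 0.18, and none had an adjusted p under 0.05 in edgeR. *Cd36*, the scavenger receptor named as a receptor for CD5L, had means of 20142 ± 3877 in WT and 15262 ± 2468 in CD1d-KO (normalized counts, SD, n = 4 each, log2 fold change -0.40, edgeR adjusted p = 0.226) and was lower in 4 of 4 pairs. For *Cd36* the value was -0.33 without replicate 1. *Itgb2*, a chain of integrins that bind ICAM-2, and *Rap1b*, a small GTPase of the Rap family, had log2 fold changes of 0.005 and 0.06.

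Markers of other cells of the cavity were read beside these values. The summed TPM of 20 markers of small peritoneal macrophages and dendritic cells ran from 1942 to 3584 in WT and from 1183 to 4813 in CD1d-KO. That of 12 B cell markers ran from 183 to 558 in WT and from 126 to 945 in CD1d-KO, and none was at 0. Of the first list 16 genes were tested, with 9 higher and 7 lower in CD1d-KO and a median log2 fold change of 0.042. At an unadjusted p under 0.05 in edgeR, 3 of that list had lower values and 0 had higher ones, beside 5.01% and 7.35% of all genes tested. The 3 were *Folr2*, *Mrc1* and *Itgax*, named after their values were seen, with log2 fold changes of -1.07, -0.62 and -0.48. All 12 B cell markers were tested, with 12 higher and a median of 0.19. Without replicate 1, the first list had 5 of 16 genes higher and a median of -0.11, and the second 10 of 12 and a median of 0.072. In both lists replicate 2 was the lowest and replicate 5 or 1 the highest within each genotype. The summed TPM of the 10 large peritoneal macrophage genes ran from 3599 to 4442 in WT and from 4088 to 4585 in CD1d-KO, and was higher in CD1d-KO in 4 of 4 pairs. *Prg4* alone made up 74.97% to 80.5% of it. The other 9 genes summed to 786 to 987 TPM in WT and 799 to 1147 TPM in CD1d-KO, higher in 3 of 4 pairs and at most 961 TPM in CD1d-KO replicates 2, 3 and 5. The part of these cells in the differences above was not tested.

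Each of the other lists was at a low level or rested on genes that macrophages also express. The 12 mesothelial markers summed to at most 2.23 TPM, with 1 at 0 in every library and none tested, and the 10 endothelial markers to at most 4.09 TPM, with 4 at 0 in every library. The 12 markers of T and NK cells summed to at most 14.7 TPM and the 7 eosinophil markers to at most 7.14 TPM. The 10 neutrophil markers summed to 11.5 to 15.3 TPM in WT and 18.4 to 26.0 TPM in CD1d-KO, almost all of it *S100a8* (47.4 ± 3.05 and 84.4 ± 3.75 normalized counts, SD, n = 4 each, edgeR adjusted p = 0.101, log2 fold change 0.83 and 0.84 without replicate 1), and 9 of the 10 were under 1 TPM. The 10 mast cell markers summed to 23.9 to 84.4 TPM in WT and 56.8 to 134 TPM in CD1d-KO, mostly *Hdc*, which encodes histidine decarboxylase (66.4 TPM, edgeR adjusted p = 0.0555, log2 fold change 0.81 and 0.66 without replicate 1). Both the neutrophil and the mast cell sum were higher in CD1d-KO in 4 of 4 pairs. Of the 5 mast cell markers tested, *Hdc* alone was higher in CD1d-KO and 4 were lower. Their median log2 fold change was -0.48, and -1.06 without replicate 1. The 10 platelet markers summed to 2372 to 3544 TPM in WT and 1643 to 2924 TPM in CD1d-KO, and were lower in CD1d-KO in 4 of 4 pairs. Nearly all of this was *Pf4*, a chemokine gene that macrophages also express (2613 TPM, log2 fold change -0.52, edgeR adjusted p = 0.0731, and -0.49 without replicate 1), and 7 of the 10 were under 1 TPM. The 7 adipocyte markers summed to 104 to 164 TPM in WT and 104 to 141 TPM in CD1d-KO, lower in 4 of 4 pairs and mostly *Fabp4*, another gene that macrophages express. Across these marker lists none of the tested genes had an adjusted p under 0.05 in edgeR.

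**Figure D5:**
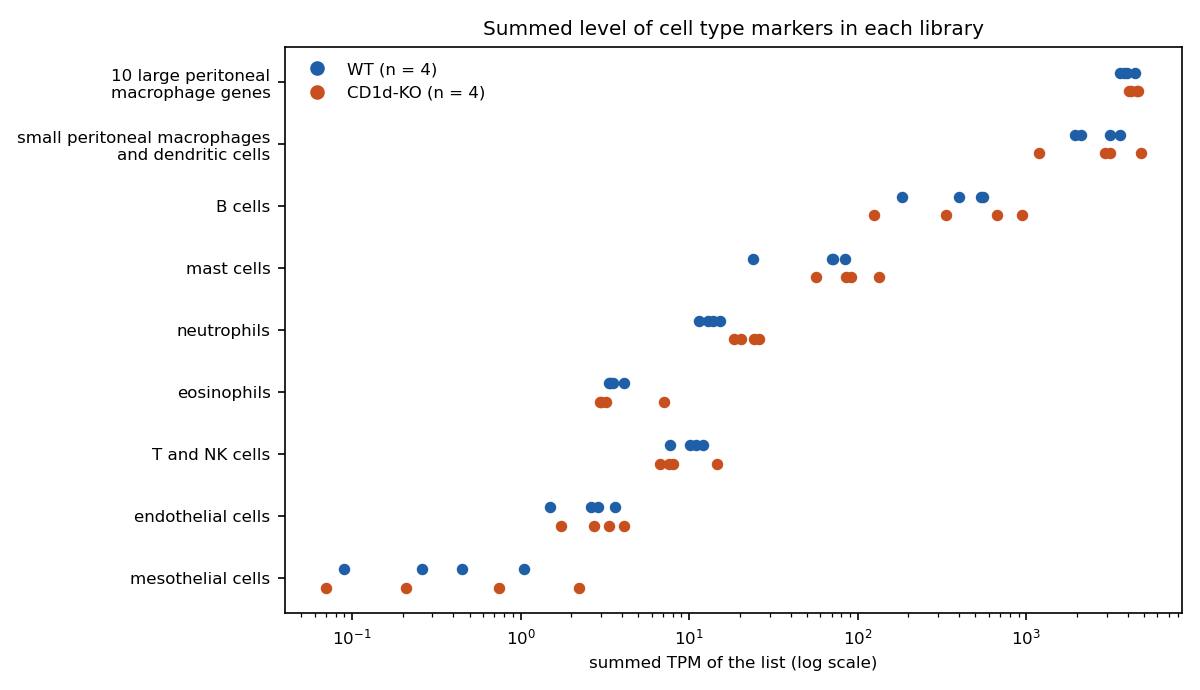
Summed TPM (log axis) of each marker list in each library, with 1 point per library (4 WT in blue, 4 CD1d-KO in orange). The 10 large peritoneal macrophage genes summed to 3599 to 4585 TPM, above every B cell, mast cell, neutrophil, eosinophil, T and NK cell, endothelial and mesothelial sum. The sum of the small peritoneal macrophage and dendritic cell markers overlapped this range. It was 4813 TPM in CD1d-KO replicate 5, where the 10 genes summed to 4528 TPM.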

How the data were processed

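The authors sequenced polyadenylated RNA as single-end reads of 75 bases, trimmed them with cutadapt, aligned them with STAR 2.5.2a and quantified them with RSEM 1.3.0 on Ensembl release 86 of GRCm38. The deposited expected counts are estimates that divide shared reads among genes, with no normalization. The authors' TPM values are RSEM's, scaled for depth and effective length. Every pair of libraries differed beyond sampling noise, with a chi-square over its degrees of freedom of at least 14.6 in 28 comparisons. Totals were 13698864 to 19059432 expected counts per library.

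Expected counts were rounded, filtered with filterByExpr and TMM-normalized in edgeR 4.0.16 (R 4.3.3). The quasi-likelihood test with replicate number and genotype was adjusted by Benjamini-Hochberg over 13040 genes, and a call required a fold change above 1.5 at an adjusted p under 0.01. The study's methods name genotype and replicate id as covariates. After removing genotype means, same-numbered libraries correlated with 0.487, 0.387, 0.505 and 0.207 for numbers 1, 2, 3 and 5, all above 0.1, so the numbers were taken to pair the samples. The closest library of another number reached -0.015, 0.025, 0.059 and 0.220, so number 5 did not stand out. Alternatives were DESeq2 1.42.0, limma-trend 3.58.1 on log2(TPM + 1), other scalings and filters, no replicate block and each replicate left out.

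Coordinates and symbols came from GENCODE M21, which held 48435 of the 48795 gene IDs. The members and all gene lists were chosen with earlier results of these data known. The genes named are the members, *Cd1d1* and *Cd1d2*, the genes of each list with an adjusted p under 0.05 (there were none) and its 3 most abundant genes (1 of them is not reported here), and the 5 genes most like *Gata6*. The fit was tested on simulated counts of this comparison with 12795 genes, where it called 90 of the 100 genes with a log2 change of 1 and 100 of the 100 with a log2 change of 2, with 7 unchanged genes called. Genes with low counts were not among the changed ones. Changes below a log2 of 1, such as those estimated for the members, were not simulated.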

Additional observations from a re-analysis of the deposited data

Results flagged for a closer look

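Each group of 4 libraries was tested for a single distant library, by Dixon's ratio of the gap to its nearest neighbour over the range, for the 10 members and *Cd1d1* (22 groups). Chance alone sets apart about 1 in 20 such groups, and 3 were set apart. *Adgre1* in WT replicate 3 was far above the other WT libraries, at 14083 normalized counts. *Tgfb2* in CD1d-KO replicate 3 was far above the other CD1d-KO libraries, at 815 normalized counts. *Cd1d1* in the library labelled CD1d-KO replicate 1 was far above the other CD1d-KO libraries, at 60.2 normalized counts.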

How the results depend on the processing

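Of 129 log2 fold changes of single members recomputed over 13 alternatives, 125 kept their direction, and 4 did not. *Gata6* was 0.115 without replicate 5, with a range of -0.233 to 0.115 over the fits that left out a pair. *Rarb* was -0.05 without replicate 1 (range -0.05 to 0.52 over those fits), -0.108 without the library labelled CD1d-KO replicate 1 and without the block, and -0.133 by DESeq2 without replicate 1. *Rarb* could not be tested when every library had to hold at least 10 counts. No member was called in any fit except *Cd5l* by DESeq2 without replicate 1 (1 member called and 1 at an adjusted p under 0.05), an alternative chosen after seeing the data. The count of members at an adjusted p under 0.05 was 4 with no filter on counts.

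Over all genes, 5 were called, and the count was 104 by DESeq2, 55 by DESeq2 without replicate 1, 236 with no filter, 3 by limma-trend, 48 at an adjusted p under 0.05 with the fold threshold, 53 without it, and 3 to 22 when a pair was left out (22 without replicate 2, 3 without replicate 3 and 3 without replicate 5). Without the replicate block, which ignores the pairing, 3 genes were called and 1 member rather than 4 had an unadjusted p under 0.05. That number ran from 2 (without replicate 3) to 4 when a pair was left out. The medians of the 5 pathway lists and of the small macrophage list moved by less than their spread between pairs in every alternative run; without replicate 1 that of the retinoid list was 0.059 and that of the small macrophage list -0.107. The cause of these shifts was not tested. *Rarb* rested on 4 to 41 reads per library, and counting error and spread between mice were not separated for it.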
